A study of Mus musculus with 3 samples.

Results

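The genes described here are 10 glycolytic enzyme genes that include the forms used by most cells of the body and the forms restricted to male germ cells. They are Hk1, Aldoa, Aldoart1, Gapdh, Gapdhs, Pgk1, Pgk2, Ldha, Ldhb and Ldhc, chosen by symbol from the 32245 gene symbols in the count tables of a single-cell RNA sequencing study of mouse testis, and all 10 were found. They occupy 11 rows of the tables, because Aldoa has a second row that held 136 of its 46918 counted molecules, and the rows were added. Their levels were followed along the germ cell stages, in the somatic cells, and between libraries.

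The study set adult testis cells of wildtype C57BL/6N mice beside those of C57BL/6N mice with a conditional knockout of Tex10. There were 2 wildtype libraries, each from 1 mouse, and 1 library labelled knockout that pooled the cells of 2 mice. Which cells lost Tex10, and which part of the gene, is not stated in the labels. The assay captures the 3′ end of each messenger RNA with a molecular tag (UMI), so that each molecule is counted once. Levels are given as CPM, the counts per 1000000 UMIs of a cell group in a library, in the order wildtype replicate 1, wildtype replicate 2, library labelled knockout. A molecule gives 1 tag whatever its length, so these levels are not divided by transcript length.

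The 3 libraries held 93418341, 96001773 and 147783171 UMIs, and 7519 to 11084 barcodes per library were kept. Of these, 3105 to 4261 per library fell in 12 germ cell clusters, numbered 1 to 12 along the stages by marker genes and grouped into 5 classes. Cluster 1 is spermatogonia-like, clusters 2 to 4 early spermatocyte-like, clusters 5 and 6 late spermatocyte-like, clusters 7 and 8 round spermatid-like and clusters 9 to 12 elongating spermatid-like. The names rest on 8 or more detected markers each and are used below without the suffix. Clusters of low UMI content, whose median was under 3 times the lowest UMI total of the library, took 42.5% to 66.0% of the kept barcodes and were left out of these classes. Cluster 5 held 260, 257 and 272 cells of the libraries and cluster 6 held 364, 503 and 262, so the late spermatocyte class is made up differently in each library and its values are also given by cluster. Cluster 6 held markers of 2 classes: its 14 round spermatid markers summed to 3037 to 3617 CPM and its 10 late spermatocyte markers to 2669 to 2859 CPM, against 47.6 to 77.3 and 2886 to 2946 CPM in cluster 5, so its name is uncertain. Cluster 4 was mixed as well: its 9 early spermatocyte markers summed to 4404 to 4767 CPM and its 10 late ones to 3423 to 3711 CPM. In cluster 3 these sums were 10264 to 11318 and 1416 to 1549 CPM. The late sum of cluster 4 was above that of cluster 5, so its name is also uncertain. Among the 10 genes that stand out most in clusters 4, 6, 9 and 11, 0 are markers of the class they were given. Any pair of libraries shared 27 to 30 cell barcodes. Tex10 itself was at 142, 125 and 131 CPM in spermatogonia and 92.5, 85.2 and 82.8 CPM in early spermatocytes, so in spermatogonia the library labelled knockout lay between the wildtype libraries. As the deleted part of the gene is not given, these tags do not check the label.

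Glycolysis splits glucose into pyruvate, and lactate dehydrogenase converts pyruvate and lactate into each other. Sertoli cells, the nurse cells of the seminiferous tubule, take up glucose and pass lactate to the spermatocytes and spermatids, while mature sperm run glycolysis along the tail. Several steps of the pathway have a second gene that is expressed only in meiotic or later male germ cells, and some of these genes are intronless copies of the body-wide form.

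The isoforms of a pair are related in sequence, though not equally closely. Pgk1 and Pgk2 share 79.3% of their coding bases and 83.7% of their residues, Ldha and Ldhc 73.3% and 72.3%, Gapdh and Gapdhs 70.9% and 71.1% over the part that aligns, and Aldoa and Aldoart1 94.2% and 95.3%. The lines below give the last 90 coding bases, stop codon included, of 2 pairs from the GRCm38 assembly with the GENCODE annotation, 5′ to 3′, with the bases that differ within a pair in capitals. The pairs differ at 21 and 5 of these positions, and the aldolase pair is the closer of them.
Ldha: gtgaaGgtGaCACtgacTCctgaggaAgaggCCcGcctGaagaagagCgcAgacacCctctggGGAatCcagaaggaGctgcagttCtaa
Ldhc: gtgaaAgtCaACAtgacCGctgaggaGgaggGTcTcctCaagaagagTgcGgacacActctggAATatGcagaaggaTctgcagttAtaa
Aldoa: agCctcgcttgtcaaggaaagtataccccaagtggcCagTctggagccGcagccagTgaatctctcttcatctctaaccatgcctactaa
Aldoart1: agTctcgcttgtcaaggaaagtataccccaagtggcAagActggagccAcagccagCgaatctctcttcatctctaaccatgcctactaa

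Tags of this assay come mostly from the end of a transcript, so the last 500 transcript bases were searched for 31-base words that also occur in transcripts of other genes. No such word was shared for Pgk2, Ldha, Ldhc, Gapdhs, Aldoart1 or Hk1. Gapdh shared 94.9% of its words with 253 other genes, 6 of which are in the count tables. Ldhb shared 35.5%, Aldoa 23.2% (in part with Aldoart1) and Pgk1 11.1%, so the counts of these 4 genes are less certain than those of the germ-cell forms. Gapdh, Gapdhs, Aldoa and Hk1 also overlap a gene on the opposite strand, and the use of strand in the counting is not given in the sources used here.

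Spermatid RNA was counted in every cell group, as free RNA in the droplets would give, so a germ-cell isoform counted in a spermatogonium or a somatic cell need not come from that cell. Prm1, a protamine gene of elongating spermatids, was at 102701, 103746 and 91908 CPM there, but still at 2152, 2426 and 2166 CPM in spermatogonia and 3474, 3883 and 3409.9 CPM in peritubular myoid cells, the contractile cells around the tubules. The level that such free RNA would give a gene was therefore estimated for germ clusters 1 to 6 as its level in myoid cells of the same library times a factor. The factor is the median ratio, over 6 spermatid genes (Prm1, Prm2, Tnp1, Tnp2, Odf1 and Smcp), of the cluster's level to the myoid level. This takes all of a gene's RNA in myoid cells as free RNA, an assumption that was not tested. It is used for Ldhc, Pgk2, Gapdhs and Aldoart1, since myoid cells express the other members. For Hk1 it is given only as a high estimate.

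Between one germ cell class and the next, a gene was called higher or lower when its level differed at least 2-fold, with 1 CPM added to both sides, in the same direction in all 3 libraries and reached 20 CPM somewhere. This is a rule of size with no p-value, since the cells were grouped on their expression, though without the 10 genes. From spermatogonia to early spermatocytes, 4 of 8 members that reached that level were called: Ldha and Ldhc rose and Pgk1 and Gapdh fell, against 19.2% of all tested genes called higher and 23.3% called lower. From early to late spermatocytes Pgk2, Aldoart1 and Hk1 rose and Gapdh fell, 4 of 8 members (18.7% of all genes higher, 27.9% lower). The calls of Aldoart1 and Hk1 at this step were lost in 4 and 3 of 12 other settings, all of which change the cells kept or the clusters. In cluster 5 of the late class Aldoart1 was at 1.55 to 1.88 CPM and Hk1 at 53.0 to 58.2 CPM, and in cluster 6 at 72.0 to 89.1 and 129 to 146 CPM. The calls of Ldha, Ldhc and Pgk1 from spermatogonia were lost when the list genes were used for clustering. From late spermatocytes to round spermatids Pgk2, Gapdhs, Aldoa, Aldoart1 and Hk1 rose, 5 of 7 members, where 28.4% of all genes were called higher and 34.4% lower. From round to elongating spermatids Gapdhs rose and Ldha fell, 2 of 7 members, against 7.91% and 59.1% of all genes.

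The order in which the germ-cell forms appeared was finer than the classes. Between clusters 3 and 4, both named early spermatocytes though the name of cluster 4 is uncertain, Ldhc and Ldha rose and Ldhb, Gapdhs and Aldoart1 fell. These were 5 of 9 members, with 13.1% of all genes called higher and 21% lower. Gapdhs and Aldoart1 were at 1.19 to 1.45 and 0.514 to 1.26 times their free-RNA levels on both sides of this step. The 9 Sertoli markers, whose cells hold Ldhb, summed to 228 to 264 CPM in cluster 3 and 27.0 to 52.7 CPM in cluster 4. Between clusters 4 and 5 Pgk2 rose and Gapdh and Gapdhs fell, 3 of 7 members (12.2% of all genes higher and 20.8% lower). Gapdhs was again near its free-RNA level on both sides, at 1.19 to 1.27 times in cluster 4 and 0.952 to 1.28 times in cluster 5. Between clusters 5 and 6 Pgk2, Gapdhs, Aldoa, Aldoart1 and Hk1 rose, 5 of 8 members (21.9% of all genes higher). Between clusters 6 and 7 Gapdhs alone was called, 1 of 7 (17.9% higher). No member was called between clusters 7 and 8 (14.4% of all genes higher, 16.7% lower), 8 and 9 (2.87% and 30.3%) or 11 and 12 (0.165% and 10.2%). By the first cluster in which each was called higher than in the one before, Ldhc came first, Pgk2 next, and Gapdhs and Aldoart1 last.

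**Figure D1:**
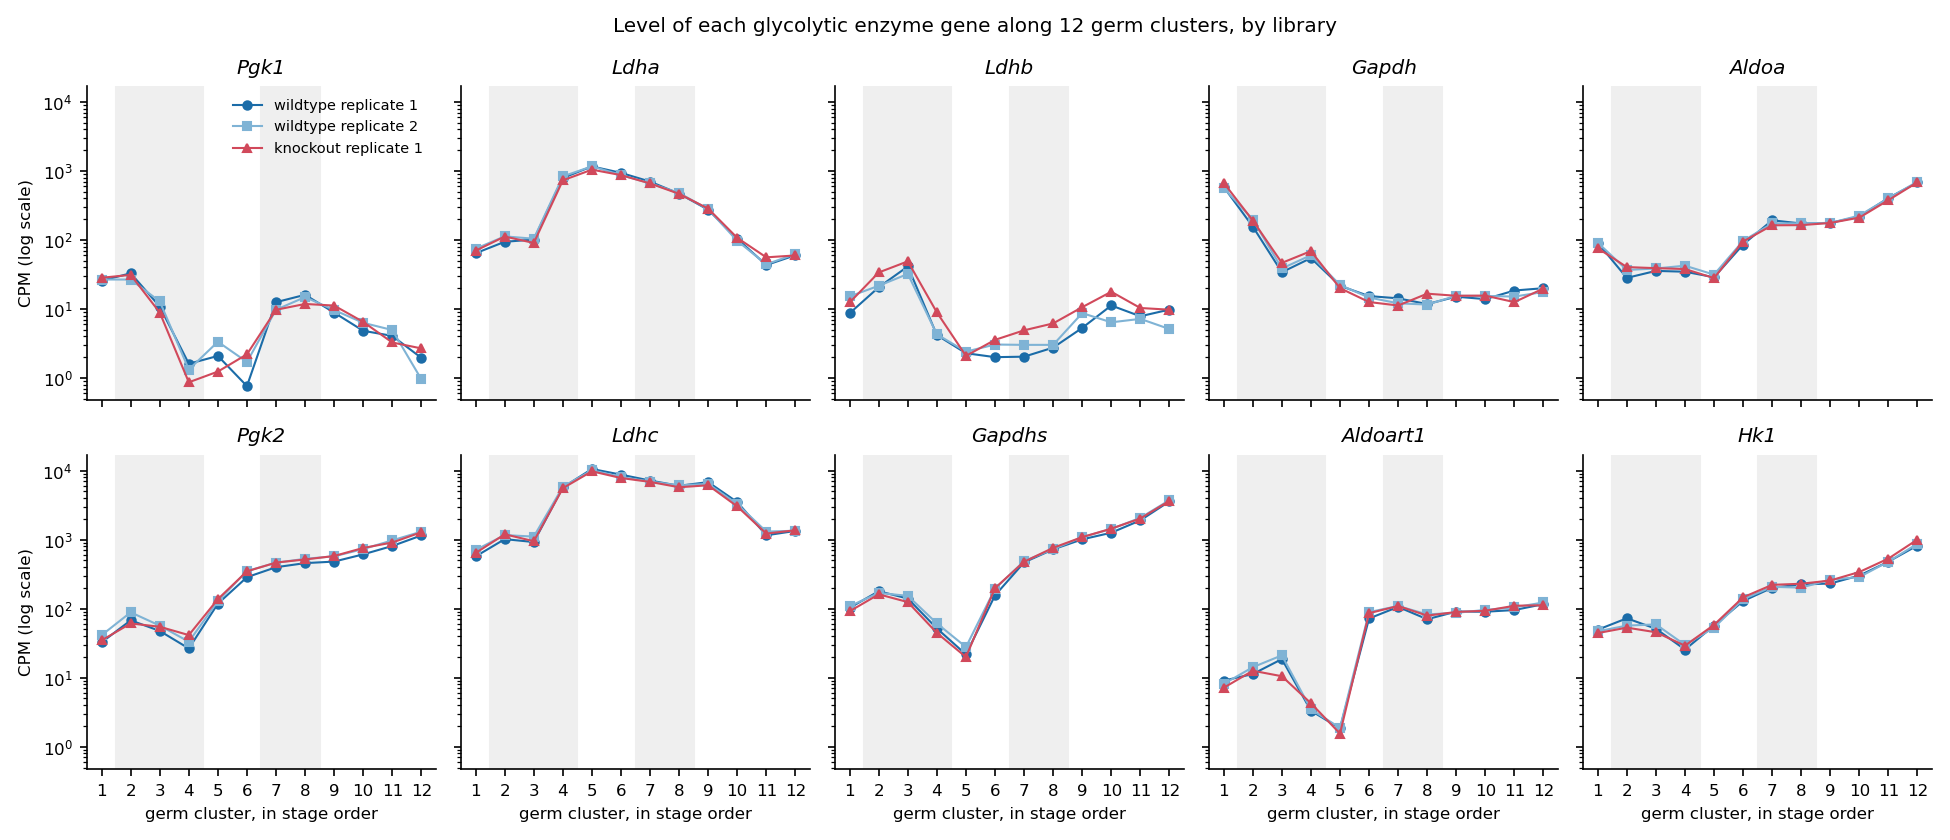
Level of each gene in CPM (log axis) in germ clusters 1 to 12, in stage order, with 1 line per library (circles wildtype replicate 1, squares wildtype replicate 2, triangles library labelled knockout) and shading that alternates between the 5 classes. Ldhc and Ldha climb at cluster 4, Pgk2 at cluster 5 and Aldoart1 at cluster 6, where it lies at 72.0 to 89.1 CPM after 1.55 to 1.88 CPM in cluster 5.

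Hexokinase 1 puts the first phosphate on glucose and traps it in the cell. Hk1 (ENSMUSG00000037012, chr10:62268855-62379908, reverse strand) was at 49.5, 47.0 and 44.2 CPM in spermatogonia, 33.6, 36.3 and 34.5 in early spermatocytes and 81.4, 88.9 and 81.8 in late spermatocytes. It reached 209.5, 205 and 224 CPM in round and 386, 406 and 431 CPM in elongating spermatids, with 821, 872 and 1002 CPM in cluster 12. As counted, the 5 classes do not overlap in this gene, elongating spermatids being highest and early spermatocytes lowest. With all Hk1 of myoid cells taken as free RNA, it was at 0.524 to 0.721 times the free-RNA level in spermatogonia. In early spermatocytes it was at 0.571 to 0.702 times and in late spermatocytes at 2.47 to 3.83 times that level. The part of free RNA in the spermatogonia and early spermatocyte counts was not tested, so their order is uncertain. The log2 change of Hk1 was 1.25 (range over the 3 libraries 1.22 to 1.27) from early to late spermatocytes and 1.33 (range over the 3 libraries 1.20 to 1.44) from there to round spermatids. Hk1 is known to use germ-cell transcript variants with another 5′ start, which 3′ tags do not separate.

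Fructose-bisphosphate aldolase cuts the phosphorylated sugar into its triose parts. Aldoa is the form of muscle and most tissues, and Aldoart1 is a copy of it with 1 exon. Aldoart1 (ENSMUSG00000059343, chr4:72850583-72852634, reverse strand) was at 9.07, 8.12 and 7.15 CPM in spermatogonia and 1.84, 1.88 and 1.55 CPM in cluster 5. It stayed within 0.466 to 1.26 times its free-RNA level in clusters 1 to 5. In cluster 6 it stood at 72.0, 89.1 and 85.9 CPM, 10.002 to 20.9 times that level. No later step between clusters was called, with 92.2, 102 and 97.7 CPM in round and 94.8, 99.7 and 97.4 CPM in elongating spermatids. Its spermatid classes overlap and lie above all others. Its log2 change from cluster 5 to cluster 6 was 4.91 (range 4.68 to 5.09), the largest in size of any member between neighbouring clusters. Aldoa (ENSMUSG00000030695, chr7:126795234-126800751, reverse strand) rose at the same step. It was at 90.7, 91.4 and 75.7 CPM in spermatogonia and 28.8, 31.5 and 28.0 CPM in cluster 5. It then stood at 85.8, 96.9 and 94.9 CPM in cluster 6, 185, 174 and 163 CPM in round spermatids and 679, 698 and 685 CPM in cluster 12. Aldoart1 made up 45.6%, 47.9% and 47.5% of the UMIs of the pair in cluster 6 but only 14.6%, 14.96% and 14.04% in cluster 12. Aldoart2, a further intronless aldolase gene that is not among the 10, was higher than Aldoart1, at 188, 222 and 248 CPM in cluster 6 and 429, 469 and 464 CPM in elongating spermatids.

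Glyceraldehyde-3-phosphate dehydrogenase makes the first high-energy intermediate of the pathway. Gapdhs encodes the sperm form, which is bound to the fibrous sheath of the tail. Gapdh (ENSMUSG00000057666, chr6:125161715-125166467, reverse strand) was at 584, 564 and 670.4 CPM in spermatogonia, 156, 197 and 191 CPM in cluster 2, 34.1, 38.6 and 46.6 CPM in cluster 3 and 19.5, 19.0 and 18.0 CPM in late spermatocytes. It fell at both of the first steps between clusters, with a log2 change of -1.74 (range -1.90 to -1.51) from cluster 1 to cluster 2 (12.8% of all genes called lower) and -2.17 (range -2.32 to -2.01) to cluster 3 (12% lower and 8.44% higher). In cluster 4 Gapdh was at 54.6 to 68.9 CPM, above its range in cluster 3, a step at which it was not called. In spermatids a remainder of 11.95 to 13.3 CPM (round) and 15.6 to 15.8 CPM (elongating) was counted.

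Gapdhs (ENSMUSG00000061099, chr7:30729775-30743681, reverse strand) was at 102.7, 109 and 91.6 CPM in spermatogonia, which is 1.10 to 1.29 times the free-RNA level, and it was 1.10 to 1.45 times that level in clusters 2 to 4. It was at 21.7, 27.8 and 19.9 CPM in cluster 5, 0.952 to 1.28 times that level. In cluster 6 it stood at 156, 194 and 198 CPM, with a ratio of 3.23 to 5.49. Round spermatids held 565, 555 and 585 CPM, elongating spermatids 1626, 1821 and 1715 CPM and cluster 12 3575, 3717 and 3636 CPM. Both spermatid classes lie above all others in each library, whereas the early and late spermatocytes overlap. Of all 12 clusters, the summed level of both genes was lowest in cluster 5, where Gapdh was at 21.7, 22.3 and 20.04 CPM. The Gapdhs share of the pair was 14.95%, 16.1% and 12.03% in spermatogonia, 91.0%, 93.0% and 94.0% in cluster 6 and 99.0%, 99.1% and 99.1% in elongating spermatids. With the free-RNA level subtracted, the share in spermatogonia became 1.60%, 2.17% and 2.95%.

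Phosphoglycerate kinase makes the first ATP of glycolysis. Pgk1 lies on the X chromosome, which is silenced during male meiosis, and Pgk2 is an autosomal copy with 1 exon, against 11 in Pgk1. The 250 bases before the start sites of both genes, taken from RefSeq on GRCm38.p6, are shown because the data bear on which of the genes is used. Capitals mark GC boxes (GGGCGG) and CCAAT boxes (CCAAT) on either strand. The stretch before Pgk1 is chrX:106186850-106187099, forward strand, and that before Pgk2 is chr17:40208610-40208859, reverse strand. The end of the Pgk2 stretch lies inside the annotated gene, whose 5′ end is at 40208640.
Pgk1: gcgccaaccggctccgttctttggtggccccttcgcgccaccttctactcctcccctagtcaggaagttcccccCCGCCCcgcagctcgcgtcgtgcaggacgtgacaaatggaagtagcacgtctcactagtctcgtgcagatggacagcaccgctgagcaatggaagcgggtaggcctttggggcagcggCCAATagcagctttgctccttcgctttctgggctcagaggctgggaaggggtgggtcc
Pgk2: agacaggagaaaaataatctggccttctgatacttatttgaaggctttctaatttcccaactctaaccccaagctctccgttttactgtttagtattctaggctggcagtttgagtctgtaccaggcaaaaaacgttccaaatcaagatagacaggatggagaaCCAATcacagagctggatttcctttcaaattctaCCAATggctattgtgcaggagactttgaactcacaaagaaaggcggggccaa

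The Pgk1 stretch has 62.8% G and C and 17 CpG dinucleotides, and the Pgk2 stretch 42.0% and 3, where the median over 32851 such stretches is 52.4% and 6. A GC box occurs in 32.7% and a CCAAT box in 33.8% of them, so such matches are common.

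Pgk1 (ENSMUSG00000062070, chrX:106187100-106203699, forward strand) was at 25.7, 26.7 and 28.3 CPM in spermatogonia and 32.9, 26.7 and 31.2 CPM in cluster 2. It was at 1.61, 1.33 and 0.868 CPM in cluster 4 and 0.764, 1.71 and 2.21 CPM in cluster 6, of which the lowest value rests on 8 UMIs. Round spermatids again held 13.9, 11.2 and 10.5 CPM, more than late spermatocytes (1.64, 2.65 and 1.501 CPM) in every library, and cluster 12 held 1.96, 0.962 and 2.69 CPM. None of these later levels reached 20 CPM, so the return in round spermatids is given as values and was not called. Pgk2 (ENSMUSG00000031233, chr17:40207015-40208640, reverse strand) was within 0.777 to 1.20 times its free-RNA level in clusters 1 to 3, at 1.37 to 2.08 times in cluster 4 and at 10.4 to 15.5 times in cluster 5. It was counted at 26.5, 33.2 and 41.4 CPM in cluster 4, 118, 129 and 137 CPM in cluster 5, 420.4, 480.4 and 484 CPM in round spermatids and 1147, 1301 and 1277 CPM in cluster 12. The Pgk2 levels of spermatogonia and early spermatocytes overlap, and each later class lies above the one before. The Pgk2 share of the pair was 98.3%, 97.5% and 99.1% in cluster 5 and 99.2%, 99.3% and 99.2% in elongating spermatids.

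Pgk1 was under 20 CPM in early spermatocytes, so the X-linked genes that reached it there are given as a description and no scale for Pgk1, and a choice by the level in the first class favours falls. Over 48 such genes the median log2 change from early to late spermatocytes was -3.64, -3.37 and -3.79, against -0.51, -0.53 and -0.48 over 6084 autosomal genes chosen in the same way. Pgk1 changed by -1.36, -0.78 and -1.28 and Pdha1, the X-linked pyruvate dehydrogenase subunit gene, by -1.39, -1.61 and -1.19, from low levels at which 1 CPM added to both sides shrinks the ratio. Pdha2, the autosomal copy of Pdha1, was at 23.4, 26.4 and 26.5 CPM in spermatogonia, 346, 357 and 281 CPM in cluster 4 and 26.3, 21.2 and 23.7 CPM in cluster 12. It was highest in cluster 4, whereas Pgk2 was highest in cluster 12.

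Lactate dehydrogenase is a tetramer of A, B or C subunits, encoded by Ldha, Ldhb and Ldhc, of which the C subunit is the form of spermatocytes, spermatids and sperm. Ldha (ENSMUSG00000063229, chr7:46841475-46855627, forward strand) and Ldhc (ENSMUSG00000030851, chr7:46861203-46878142, forward strand) are neighbours, and the 250 bases before their start sites in RefSeq on GRCm38.p6 are shown because both genes climbed in the same cluster. They are chr7:46845554-46845803, forward strand, for Ldha and chr7:46861013-46861262, forward strand, for Ldhc. Each gene has 2 start sites in RefSeq, and the one nearer to the annotated 5′ end was taken. For Ldha that site, chr7:46845804, still lies inside the annotated gene, which begins at 46841475. The same holds for Ldhc, with its site at chr7:46861263 and its annotated start at 46861203. Capitals mark the cAMP response element (TGACGTCA), its core (TGACG) and GC boxes (GGGCGG), on either strand. The core lies within the whole element.
Ldha: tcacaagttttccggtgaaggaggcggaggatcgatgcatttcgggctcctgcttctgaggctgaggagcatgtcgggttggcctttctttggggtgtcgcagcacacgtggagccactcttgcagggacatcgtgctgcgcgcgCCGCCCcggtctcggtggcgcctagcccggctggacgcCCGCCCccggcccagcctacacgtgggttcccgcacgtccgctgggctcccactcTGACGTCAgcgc
Ldhc: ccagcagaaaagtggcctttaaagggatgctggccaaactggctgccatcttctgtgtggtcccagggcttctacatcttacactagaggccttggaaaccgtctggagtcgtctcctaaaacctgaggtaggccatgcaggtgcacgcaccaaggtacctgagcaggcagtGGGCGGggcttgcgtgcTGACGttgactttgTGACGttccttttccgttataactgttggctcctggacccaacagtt

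Ldha has the whole element 12 bases before the start site, and Ldhc has the core at 47 and 61 bases. The whole element occurs in 1.55% of all such stretches and the core in 17.8%.

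Ldhc was the most abundant of the 10 genes in every germ cell class but spermatogonia, where its range overlapped that of Gapdh. It was counted at 571, 707 and 639 CPM in spermatogonia, 0.892 to 0.937 times the free-RNA level, and at 921, 1104 and 947 CPM in cluster 3, 1.11 to 1.15 times that level. In cluster 4 it stood at 5695, 5810.3 and 5553 CPM (14.99 to 19.2 times) and in cluster 5 at 10529.8, 10094 and 9749 CPM (50.4 to 67.3 times), its peak. Round spermatids held 6719, 6693 and 6417 CPM, elongating spermatids 3598, 3237 and 3296 CPM and cluster 12 1335, 1342 and 1365 CPM, where Gapdhs (3575 to 3717 CPM) was above it. Its classes do not overlap, late spermatocytes being highest and spermatogonia lowest.

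Ldha, the A subunit gene of muscle, rose with Ldhc rather than falling as the germ-cell form appeared. It was at 64.2, 74.8 and 69.9 CPM in spermatogonia, 101, 104 and 90.4 CPM in cluster 3, 791, 832 and 730.1 CPM in cluster 4 and 1161, 1164 and 1042 CPM in cluster 5. From cluster 3 to cluster 4 its log2 change was 2.98 (range 2.95 to 2.999) and that of Ldhc 2.52 (range 2.39 to 2.63). Ldha was later at 611, 610.1 and 584 CPM in round and 129, 119 and 137 CPM in elongating spermatids. It was highest in late spermatocytes, and its early spermatocytes and round spermatids overlap. Between clusters 9 and 10 Ldha fell by 1.43 on the log2 scale (22.4% of all genes called lower), and between clusters 10 and 11 Ldhc fell by 1.41 (15.6% lower), the only members called at either step. The Ldhc share of the UMIs of Ldha, Ldhb and Ldhc moved from 87.7%, 87.4% and 88.3% in cluster 4 to 96.3%, 96.3% and 95.6% in elongating spermatids.

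Ldhb (ENSMUSG00000030246, chr6:142490249-142507957, reverse strand), the B subunit gene of heart, was low in all germ cell clusters, and highest in cluster 3. The 9 Sertoli markers also summed highest in cluster 3, at 228 to 264 CPM, against 58.5 to 63.5 CPM in cluster 1 and 27.0 to 52.7 CPM in cluster 4. The part of Sertoli RNA in the Ldhb counts of germ clusters was not tested. The CPM of Ldhb follow. It was at 8.69, 15.2 and 12.4 CPM in spermatogonia, 41.3, 32.2 and 49.0 CPM in cluster 3, 2.29, 2.41 and 2.09 CPM in cluster 5 and 9.02, 6.84 and 13.7 CPM in elongating spermatids. Its levels in spermatogonia, early spermatocytes and elongating spermatids overlapped between libraries.

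As counted, the germ-cell share rose from spermatogonia to elongating spermatids by 42.0 percentage points for Pgk2, 7.41 for Ldhc, 84.7 for Gapdhs and 15.6 for Aldoart1 (means of 3 libraries). With the free-RNA level subtracted in spermatogonia these gains were 99.2, 96.1, 96.9 and 24.3 points. Only the germ-cell form was corrected, and a count below its free-RNA level was taken as none. In spermatogonia this held in each library for Pgk2 (0.777 to 0.882 times its free-RNA level), Ldhc (0.892 to 0.937 times) and Aldoart1 (0.642 to 0.881 times). For these genes the subtracted gain is therefore the share in elongating spermatids and gives no further evidence on spermatogonia.

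**Figure D2:**
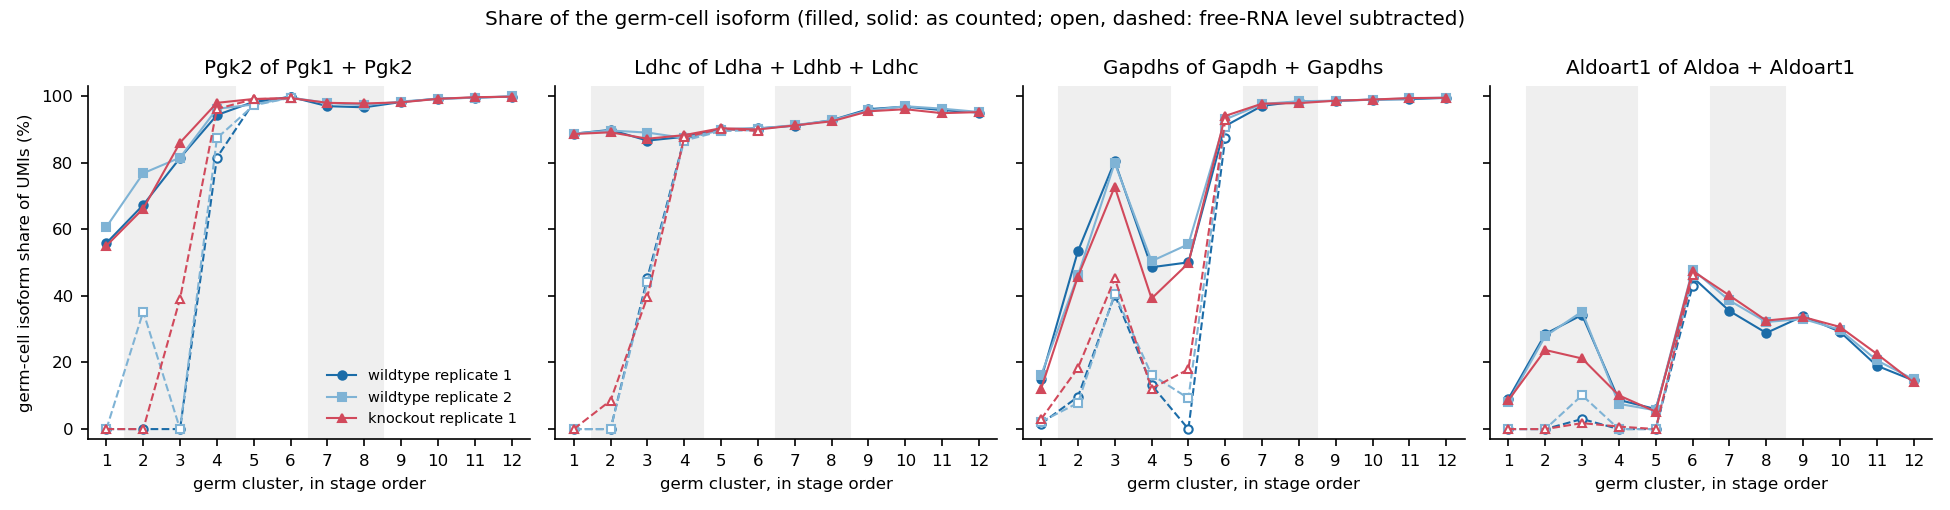
Share (%) of the germ-cell form among the UMIs of its set in germ clusters 1 to 12, by library, as counted (filled symbols, solid lines) and with the free-RNA level subtracted in clusters 1 to 6 (open symbols, dashed lines). The counted Ldhc share is 88.6% to 88.7% in cluster 1 and 95.03% to 95.2% in cluster 12 while the subtracted one climbs between clusters 2 and 4, and the Aldoart1 share peaks in cluster 6.

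**Figure D3:**
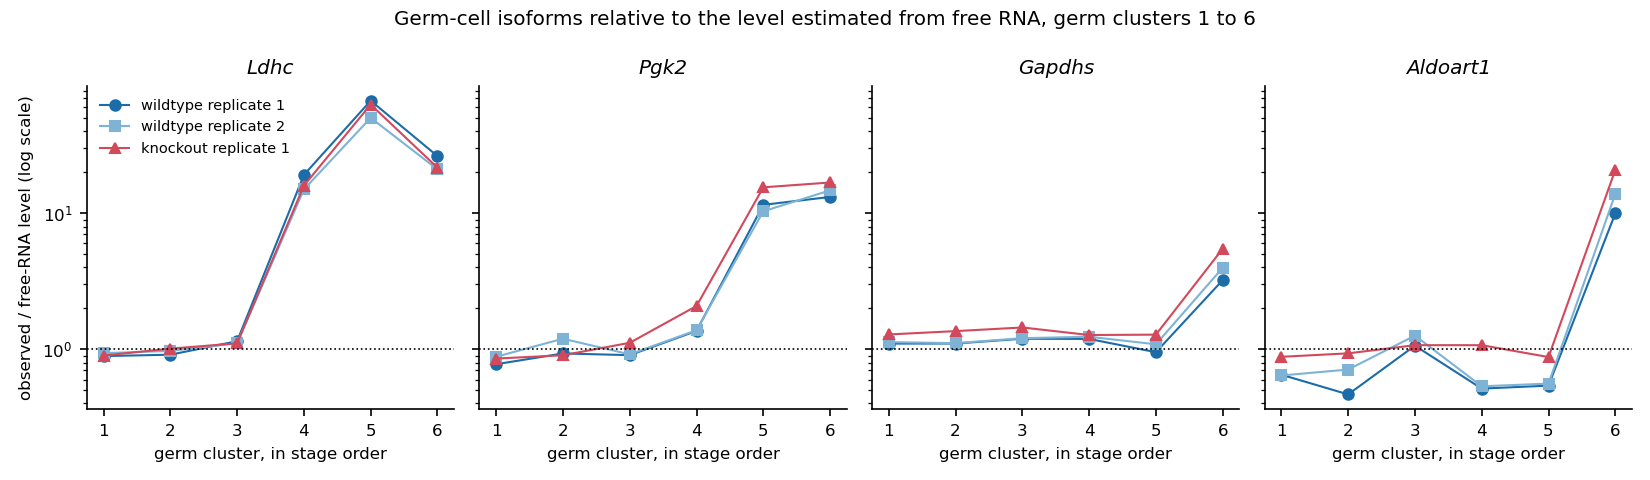
Level of each germ-cell form divided by the level estimated from free RNA (log axis; dotted line at 1) in germ clusters 1 to 6, by library. Ldhc lies at 0.892 to 1.15 in clusters 1 to 3 and 14.99 to 19.2 in cluster 4, and Pgk2 at 1.37 to 2.08 in cluster 4 and 10.4 to 15.5 in cluster 5. Gapdhs lies at 0.952 to 1.45 and Aldoart1 at 0.466 to 1.26 in clusters 1 to 5, and in cluster 6 they lie at 3.23 to 5.49 and 10.002 to 20.9.

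The scaling matters for the late stages. From round to elongating spermatids the median log2 change of all tested genes was -1.56 by total UMIs and 0.42 by median-of-ratios size factors. With the latter, Ldhc changed by 0.67 at this step instead of -0.97, and by 0.02 instead of -0.52 from late spermatocytes to round spermatids, so its direction after the late spermatocytes depends on the scaling and neither step was called under either. Ldha changed by -0.59 instead of -2.22 and was no longer called, and the fall of Pgk1 from spermatogonia (-1.98) was no longer tested. The other 13 of the 15 calls between neighbouring classes were kept. In all, 11 of the 15 were higher and 4 lower, against 18 higher and 3 lower with size factors. There Pgk2, Hk1, Aldoa, Aldoart1, Gapdh and Ldhb were also called higher in elongating than in round spermatids, where size factors called 35.6% of all genes higher and 21.2% lower. At the steps before, in stage order, size factors called 20.6%, 24% and 36.8% of all genes higher and 22%, 19.6% and 18.8% lower.

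Peritubular myoid cells held more Pgk1 and Ldhb than any germ cell class. Pgk1 was at 111, 114 and 107 CPM in peritubular myoid cells, above every germ cell class in each library. Gapdh was at 449.9, 426 and 508 CPM and Aldoa at 692, 699 and 501 CPM in these cells, and Ldha at 279, 301 and 292 CPM, well below its level in late spermatocytes. Hk1 was at 113, 150.4 and 105 CPM there, between spermatogonia and round spermatids. Of the A and B subunit genes, Ldhb was the higher in each library of the myoid-like, Leydig-like and Sertoli-like clusters that follow. Myoid cells held 374, 333 and 352 CPM of it, and the Leydig-like cells of higher UMI content held 691 and 919 CPM. Leydig cells make testosterone, and this cluster had 26 cells in wildtype replicate 2, 49 in the library labelled knockout and none in wildtype replicate 1. The Sertoli-like cluster with the more detected markers (320, 221 and 475 barcodes, median 1930.5 UMIs) held 1235, 1032 and 1283 CPM, against 326, 402 and 355 CPM of Ldha. Its 9 Sertoli markers summed to 6759 to 8263 CPM and the 13 elongating spermatid markers to 31964 to 61937 CPM, with none of either list at 0. The myoid markers summed to 17296 to 20089.5 CPM in myoid cells and the Leydig markers to 14942 to 18419 CPM in the Leydig-like cells. The Sertoli-like cluster falls under the limit for low UMI content and is shown because Sertoli cells are the lactate source of the tubule, a choice made after its values were seen. The order of the subunit genes was not kept in the other clusters of these cell types, where Ldhb was at 587, 431 and 395 CPM and Ldha at 573, 590.2 and 671 CPM (the other Sertoli-like cluster) and Ldhb at 235, 135 and 94.4 CPM and Ldha at 706, 628 and 811 CPM (the other Leydig-like cluster). Both are of low UMI content. The former held Sertoli markers at 1450 to 2190 CPM and elongating spermatid markers at 41641 to 53402 CPM. The latter held Leydig markers at 1482 to 2559 CPM and elongating spermatid markers at 42347 to 56934 CPM. The part of spermatid RNA in their Ldha and Ldhb counts was not tested.

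In the same Leydig-like cells Gapdh was at 698 and 897 CPM, Aldoa at 875 and 888 CPM, Pgk1 at 135 and 102 CPM, Ldha at 239.6 and 146 CPM and Hk1 at 100.01 and 49.4 CPM, in the order wildtype replicate 2, library labelled knockout. The germ-cell forms were counted in somatic cells too, with Ldhc at 1053, 1265 and 1120.0 CPM, Pgk2 at 68.8, 78.4 and 64.0 CPM, Gapdhs at 154, 161 and 112 CPM and Aldoart1 at 22.9, 21.2 and 12.8 CPM in myoid cells. Relative to the low-UMI clusters of the same library, these were 15.5% to 18.5% for Ldhc, 15.7% to 16.8% for Pgk2, 19.4% to 23.4% for Gapdhs and 24.6% to 36.4% for Aldoart1, beside 12.4% to 31.4% for the 6 spermatid genes used as a measure of free RNA. In the Sertoli-like cluster with the more detected markers the spermatid genes were at 37.9% to 154% of that level, and Ldhc (3011 to 3406 CPM) at 44.3% to 49.9%. This cluster is itself 1 of the low-UMI clusters, so it is part of the level it is compared with. Relative to elongating spermatids of the same library the spermatid genes were at 8.60% to 45.7% there and Ldhc at 83.7% to 105%, and the source of these UMIs was not tested.

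**Figure D4:**
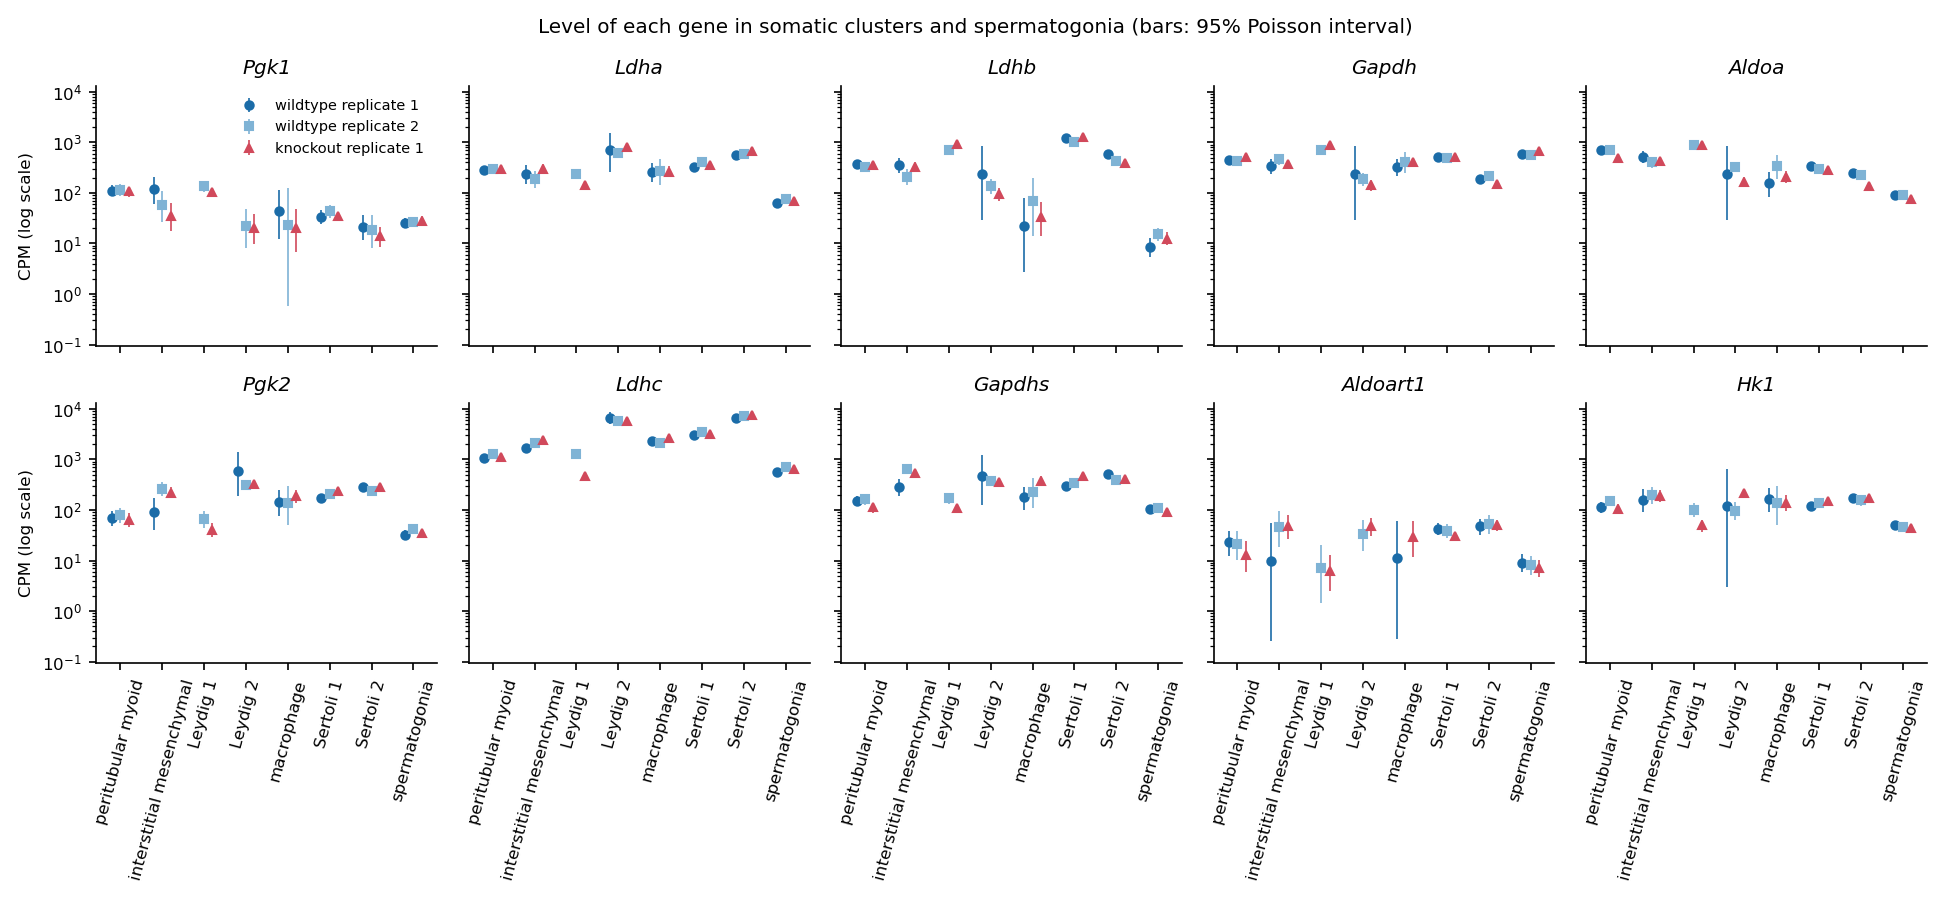
Level of each gene in CPM (log axis) in 7 somatic clusters and in spermatogonia, by library, with exact 95% Poisson intervals that cover counting error only; a point is missing where no cell was found (Leydig 1, wildtype replicate 1) or no UMI counted (Pgk1 and Aldoart1 in Leydig 2, wildtype replicate 1, and Aldoart1 in macrophages, wildtype replicate 2). Ldhb is highest in the first Sertoli-like cluster (1032 to 1283 CPM) and lowest in spermatogonia (8.69 to 15.2 CPM), and Ldhc is lowest in spermatogonia, Leydig 1 (1275 and 473 CPM in wildtype replicate 2 and the library labelled knockout) and myoid cells (1053 to 1265 CPM), and higher in the other 5 somatic clusters, among them the interstitial mesenchymal cells (1707 to 2374 CPM) and macrophages (2147 to 2690.1 CPM).

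The genes most like the germ-cell forms in their pattern were found by Pearson's r of log2(CPM + 1) over 15 points, the 5 classes in 3 libraries, which share libraries and are no independent samples. In all 10443 genes were compared. For Ldhc they were Spata4 (r = 0.997), Adam5 (0.995) and Pdcl2 (0.995), and for Pgk2 Fam161a (r = 0.993), Zbbx (0.990) and 1700063J08Rik (0.989). For Gapdhs they were 4933411K16Rik (r = 0.998), 4930571K23Rik (0.998) and 2810408A11Rik (0.998), and for Aldoart1 Pldi (r = 0.996), Iqcm (0.996) and Aldoart2 (0.995). Aldoart2, the other intronless aldolase copy of spermatids, was the only gene of the pathway list among these 12.

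The rest of the pathway was followed in a list of 46 genes for glucose and lactate transport, the other glycolytic steps and pyruvate oxidation. From spermatogonia to early spermatocytes 7 of 22 rose and 6 fell, where 19.2% of all tested genes were called higher and 23.3% lower, and from early to late spermatocytes 9 of 21 rose and 2 fell (18.7% and 27.9% of all genes). From late spermatocytes to round spermatids 9 of 24 rose and 5 fell (28.4% and 34.4%), and from round to elongating spermatids 3 of 21 rose and 10 fell (7.91% and 59.1%). The median log2 change of the tested list genes at these steps was 0.72, 1.01, 0.06 and -1.07, beside -0.20, -0.29, -0.53 and -1.56 for all tested genes. By size factors the last 2 counts became 7 higher and 3 lower of 21, and 12 higher and 2 lower of 23, beside 36.8% and 18.8%, and 35.6% and 21.2%, of all genes.

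Slc2a3, the high-affinity glucose transporter GLUT3, had a short window, at 55.2, 76.0 and 68.4 CPM in cluster 3, 643, 678 and 588 CPM in cluster 4, 700.4, 697 and 668 CPM in cluster 5 and 10.1, 14.8 and 12.3 CPM in round spermatids. Hexokinase 2, encoded by Hk2, was at 25.7, 21.3 and 35.5 CPM in spermatogonia and 0.0655, 0.231 and 0.538 CPM in late spermatocytes, where Hk1 was at 81.4 to 88.9 CPM. Gpi1, the isomerase of the second step, fell and rose again, with 172, 178 and 174 CPM in spermatogonia, 14.96, 16.8 and 16.5 CPM in late spermatocytes and 599, 622 and 596 CPM in elongating spermatids. Pkm, the pyruvate kinase gene, went from 64.6, 65.6 and 78.9 to 6.12, 6.34 and 6.49 and then 183, 201 and 210.1 CPM in the same classes. Aldoa, Gpi1 and Pkm were thus lowest in spermatocytes and higher in elongating spermatids than in spermatogonia.

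Phosphoglycerate mutase also changed genes. Pgam1, the form of most tissues, was at 189.6, 171 and 198 CPM in spermatogonia, 18.7, 18.9 and 23.0 CPM in early spermatocytes and 2.21, 2.25 and 4.23 CPM in elongating spermatids. Pgam2, known as the muscle form, was at 71.0, 89.7 and 81.8 CPM in spermatogonia, 487, 558 and 591 CPM in cluster 4, 1159.7, 1234 and 1238 CPM in cluster 5 and 984, 1053 and 1028 CPM in elongating spermatids. Both changes from spermatogonia to early spermatocytes were called, and neither gene shared a 31-base word at its 3′ end with another gene. In myoid cells Pgam2 was at 106, 104 and 127 CPM, and the part of free RNA in its spermatogonia count was not tested.

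A further lactate dehydrogenase gene, Ldhal6b, was at 187, 203 and 204 CPM in cluster 3, 1042, 1073 and 1128 CPM in cluster 4, 2327, 2225 and 2289 CPM in cluster 5 and 276, 256 and 285 CPM in elongating spermatids. As counted, Ldhal6b was above Ldha in each of the 5 classes. It overlaps Tmem242 on the same strand, so its counts are less certain. In spermatogonia it was at 102, 123 and 129 CPM, below the 192, 212 and 236 CPM of myoid cells. The part of free RNA in its spermatogonia count was not tested. Bsg, the chaperone of the lactate transporters, was at 879.9, 914 and 942 CPM in early spermatocytes and 233, 195 and 229 CPM in elongating spermatids, with a log2 change from round spermatids of -1.18 by total UMIs and 0.45 by size factors. Pfkp, a phosphofructokinase gene, peaked in late spermatocytes at 116, 122 and 117 CPM. Tpi1, the triose phosphate isomerase gene, was at 21.9, 26.7 and 30.7 CPM in spermatogonia and 278, 289.8 and 292 CPM in elongating spermatids. Pfkfb3, which makes the activator of phosphofructokinase, rose in round spermatids to 41.7, 45.6 and 53.3 CPM, and so did Gpd2, the mitochondrial glycerol phosphate dehydrogenase gene, to 367, 387 and 387 CPM. Eno1, the enolase gene, was at 24.4 to 32.5 CPM in spermatogonia and 75.1 to 101 CPM in elongating spermatids. Of the genes at the entry to the citric acid cycle, Pdhb fell from 134, 127 and 141 CPM in round to 28.0, 27.3 and 30.9 CPM in elongating spermatids, and Pdk3, a kinase that switches the complex off, from 128, 132 and 127 to 27.1, 22.0 and 25.3 CPM. By size factors their log2 changes were -0.58 and -0.74 and neither was called.

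In the library labelled knockout no member was called in any class. With 1 such library there is no test. A gene was called when it differed at least 2-fold from each wildtype library in the same direction, by at least 2 times the difference between the wildtype libraries, and reached 20 CPM in 1 library. The rule called 0 of 8 tested members in spermatogonia, where it called 0.366% of all tested genes. It called 0 of 7 tested members in each of early spermatocytes (0.287%), late spermatocytes (0.879%), round spermatids (1.03%) and elongating spermatids (1.35%). In peritubular myoid cells it called 0 of 10 (3.91%). Of 60 pairs of member and class, 46 reached 20 CPM, and the log2 ratio of the largest size among them was -0.79, for Aldoart1 in myoid cells (22.9, 21.2 and 12.8 CPM). Smaller differences are outside what this rule can call.

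The log2 ratios of the library labelled knockout to wildtype replicates 1 and 2 for Ldhc in round spermatids were -0.07 and -0.06. Pgk2 and Gapdhs in elongating spermatids had ratios of 0.22 and -0.05 and of 0.08 and -0.09. Hk1 in elongating spermatids had ratios of 0.16 and 0.09. The Poisson interval of the library labelled knockout lay above both wildtype intervals in 5 of the 60 pairs: Gapdh in spermatogonia, Hk1 in elongating spermatids, and Ldhb in early spermatocytes and both spermatid classes. It lay below both in 7: Ldha in early and late spermatocytes and round spermatids, Ldhc in early spermatocytes and round spermatids, and Aldoa in elongating spermatids and myoid cells. In the other 48 pairs it overlapped at least 1 of them. These intervals cover counting error only, not the spread between mice. In late spermatocytes the ratios of Gapdhs (0.01 and -0.53) and Aldoart1 (-0.09 and -0.67) were near 0 against wildtype replicate 1 and below 0 against wildtype replicate 2. With clusters 5 and 6 at equal weights the mean ratios were 0.14 and 0.09. The part of the cluster make-up of each library in these ratios was not tested further.

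Ldhb was higher in the library labelled knockout than in both wildtype libraries in early spermatocytes (11.4, 9.69 and 19.3 CPM), round spermatids (2.32, 3.02 and 5.40 CPM) and elongating spermatids (9.02, 6.84 and 13.7 CPM), at levels under the 20 CPM of the rule. Over all kept barcodes it was at 32.4, 27.0 and 64.2 CPM, and Leydig-like barcodes, which hold more of it than the average barcode, were 0.106%, 0.441% and 1.66% of the kept barcodes. They pool the Leydig-like cluster of low UMI content (8, 8 and 135 barcodes) with that of higher content (0, 26 and 49). In the former, Ldhb was lower, as given above, and the elongating spermatid markers summed to 42347 to 56934 CPM. Sertoli-like barcodes were 10.5%, 6.91% and 10.4%. The part of these cells in the germ cell values was not tested. In myoid cells Ldhb was at 374, 333 and 352 CPM, the library labelled knockout lying between the wildtype libraries. Of the wider list, 1 gene was called in 1 class: Slc2a1, the transporter GLUT1, at 8.82, 8.47 and 24.2 CPM in myoid cells, from 5, 4 and 17 UMIs, where 3.91% of all genes were called. It was not called with a stricter cell filter, with the top doublet scores kept, or at a higher cluster resolution.

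**Figure D5:**
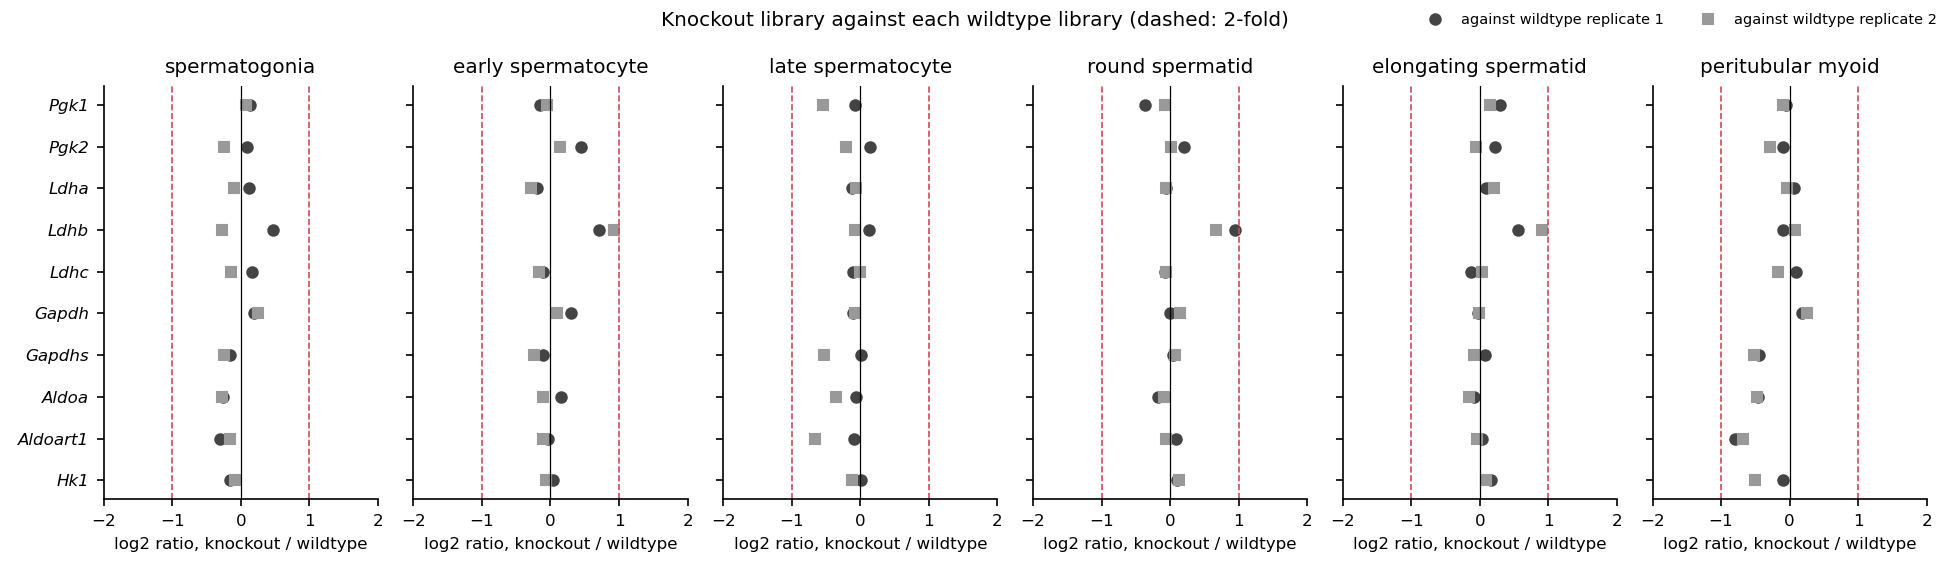
Log2 ratio of the library labelled knockout to wildtype replicate 1 (circles) and wildtype replicate 2 (squares) for each gene in 6 classes, with dashed lines at 2-fold. Every point lies within the lines, and the ones nearest to them are those of Ldhb in early spermatocytes and spermatids.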

How the data were processed

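Gene by cell UMI counts of 3 testis libraries were deposited as matrices; the submitters' processing notes list Cell Ranger 4.0.0, Seurat 4.0.5 and the mm10 build. The deposited counts are whole numbers and not normalized, and they were analysed as such.

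Barcodes with at least 1000 UMIs, 500 genes and at most 10% mitochondrial UMIs were kept; the doublet caller's own threshold marked no more than 1 barcode in a library, so the top 8% of its scores were left out. Cells were clustered with scanpy 1.11.5 (2000 variable genes, 30 components, 15 neighbours, Leiden resolution 1) without the 10 genes and the 46 list genes, which gave 28 clusters, named from markers. UMIs were summed by library and class and scaled to CPM.

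No test was run, because 1 library carries the knockout label, and the size rules are given with the results. The rule for that library was tried on simulated counts of the germ cell classes, which differed between libraries by counting error only. The rule between neighbouring classes or clusters was not tried on simulated data. Diffusion pseudotime put elongating spermatids among early spermatocytes and was replaced by the clusters in marker order, chosen after seeing the data, as were the free-RNA estimate and its use. The members and lists were chosen with earlier results of these data known. Named genes are the members, list genes called in the library labelled knockout, the list gene of each pathway step highest in spermatogonia and the one highest in elongating spermatids, and the 3 genes most like each germ-cell form; Pdha1 and Pdha2 were compared as an X-linked gene and its copy. No promoter is shown for Aldoart1. A gene of the list and a sequence are not reported here.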

Additional observations from a re-analysis of the deposited data

How the results depend on the processing

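The gains in germ-cell share from spermatogonia to elongating spermatids, in percentage points, kept their direction in all settings run, but moved by more than the spread between libraries in several. With low-UMI clusters included they were 36.5 for Pgk2, 6.23 for Ldhc, 82.8 for Gapdhs and 13.9 for Aldoart1. With the top doublet scores kept they were 35.1, 6.995, 82.3 and 13.5 in the same order. A stricter cell filter (3000 UMIs, 5% mitochondrial) moved Pgk2 to 45.8, Ldhc to 6.37 and Aldoart1 to 13.7, and clustering with the list genes moved Ldhc to 7.65 and Aldoart1 to 14.3. Subtracting the free-RNA level gave 99.2, 96.1, 96.9 and 24.3; this alternative was chosen after seeing the data, and its size is set by the free-RNA level in spermatogonia. Leaving out either wildtype library gave 41.4 to 43.8, 7.29 to 7.33, 85.0 to 85.6 and 15.7 to 16.1. For the other alternatives the cause was not tested.

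Of the 15 calls of members between neighbouring classes, 10 were kept when the list genes were used for clustering, the lost ones being Aldoart1 and Hk1 from early to late spermatocytes and Ldha, Ldhc and Pgk1 from spermatogonia; 14 were kept with the stricter filter, 13 with the doublet scores kept, 13 at Leiden resolution 2 and 13 with size factors. All were kept without either wildtype library, with 5 CPM added, with no CPM filter and with clusters at equal weights, and 0 changed direction in any setting. A 1.5-fold size called 23 steps of members, and 1 pair of member and class in the library labelled knockout, Aldoart1 in myoid cells; every other setting called 0 such pairs. The pseudotime settings with 8 and 20 bins were not run, since that order failed. No paired analysis was possible because the replicate numbers only name the libraries and no test was run. Levels under 20 CPM, as of Pgk1 and Ldhb in late germ cells, rest on few UMIs and depth limits what can be said of them; nothing here measures the spread between knockout mice.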
